A study of Mus musculus with 7 samples.

Results

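The genes described here encode the ligands, receptors, antagonists, nuclear effectors and targets of Wnt signalling and were chosen by name: Wnt, Fzd, Sfrp, Dkk and Rspo genes followed by a number, and Lrp5, Lrp6, Ror1, Ror2, Wif1, Axin2, Lef1, Tcf7, Tcf7l1, Tcf7l2, Nkd1, Notum, Lgr5 and Ctnnb1. These are 55 of the 24354 gene symbols in the deposited table. Of the 55, 33 reached 1 FPKM, a fragment count divided by transcript length and by the size of the library, in at least 1 library and entered the tests, as did 13042 genes in all. A gene can pass this filter through the one library in which it is high, so counts over the 33 are descriptions and are given beside the same share of all genes tested.

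Wnt proteins are secreted signals that bind Frizzled receptors on neighbouring cells. In the canonical branch, Wnt, a Frizzled and the co-receptors Lrp5 or Lrp6 protect β-catenin (gene Ctnnb1) from degradation, and β-catenin then activates target genes together with the DNA-binding proteins Lef1, Tcf7, Tcf7l1 and Tcf7l2. Secreted antagonists, found among the Sfrp, Dkk and Wif1 proteins, restrain the signal. R-spondins strengthen it through receptors such as Lgr5, and targets such as Axin2, Nkd1 and Notum feed back on it. All Sfrp, Dkk and Wif1 genes are counted here as antagonists by family name, whatever the action of each protein. In the embryonic cortex this signalling is known for its part in patterning and in the renewal of neural progenitors.

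RNA was measured in 7 mouse libraries, each made from RNA that was pooled from several biological replicates. MEF are embryonic fibroblasts of embryonic day 13.5, labelled with the strain C57BL/6-Pou5f1 x 129X1/SvJ and the alleles Oct4-CreER and Rosa26-loxSTOPlox-EYFP. The lines pOKSM, pBKSM and mcBKSM clones 1 and 3 are induced neural stem cells (iNSCs), made from fibroblasts of that same genotype by viral delivery of factors and culture in neural stem cell medium. The DTA line is an iNSC line from fibroblasts with Oct4-CreER and Rosa26-loxSTOPlox-DTA, a Cre-dependent diphtheria toxin gene, and its strain is given as unknown. The control neural stem cells, cNSC, came from the cerebral cortex at the same embryonic age, from heterozygous OG2/ROSA26 mice. By label, strain thus differs between cNSC and both MEF and the lines of the MEF genotype. Whether it differs from that of the DTA line is not known. The labels do not spell out the line names; p and mc are read here as polycistronic and monocistronic vectors, K, S and M as Klf4, Sox2 and Myc, O as Oct4 (Pou5f1) and B as Brn4 (Pou3f4), and the vector of the DTA line is not given. Each mcBKSM library is 1 clone, and every other group has 1 library, so most values carry no replicate error.

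Depth, estimated from the steps between low values, was about 10700000 to 15900000 fragments per library. Pou3f4 was listed at 0 in both mcBKSM clones and Pou5f1 was at 0.202 FPKM in pOKSM, so the factors in these labels were not checked by transcript and the labels are used as names. Pou3f4 was 19.99 FPKM in pBKSM, 24.1 in DTA and 27.2 in cNSC. Sox2 was 277, 342 and 390 FPKM in pOKSM and mcBKSM clones 1 and 3, and 87.6 to 107 in pBKSM, DTA and cNSC. Myc was 339, 450 and 485 FPKM in the first 3 and 42.5 to 78.9 in the others outside MEF (47.8). The part of these factors in the Wnt pathway values was not tested. The 7 neural stem cell markers examined were all at 1 FPKM or more in cNSC and in each iNSC library, and 1 of the 7 was so in MEF. Summed fibroblast markers (7 genes) were 1291 FPKM in MEF and 0.857 to 9.99 FPKM in the other libraries; the fibroblast marker Lum was listed at 0 in MEF. Endothelial markers reached 1 FPKM in no library. These are bulk values, so fewer cells expressing a gene and less RNA per cell cannot be told apart.

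Promoters of 5 genes described below are shown first: the target Axin2, the receptors Ror1 and Ror2, the antagonist Sfrp2 and the ligand Wnt6. Each sequence is the 250 bases before the RefSeq start site (GRCm38.p6), 5′ to 3′ on the gene's strand, and capitals mark CTTTG on either strand, the invariant part of the TCF/LEF core motif.
Axin2, chr11:108920099-108920348, plus strand: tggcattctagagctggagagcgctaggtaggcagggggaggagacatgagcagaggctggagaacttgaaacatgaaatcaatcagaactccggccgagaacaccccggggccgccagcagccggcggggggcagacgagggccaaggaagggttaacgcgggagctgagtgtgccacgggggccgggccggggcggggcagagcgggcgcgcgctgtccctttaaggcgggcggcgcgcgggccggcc
Ror1, chr4:100095541-100095790, plus strand: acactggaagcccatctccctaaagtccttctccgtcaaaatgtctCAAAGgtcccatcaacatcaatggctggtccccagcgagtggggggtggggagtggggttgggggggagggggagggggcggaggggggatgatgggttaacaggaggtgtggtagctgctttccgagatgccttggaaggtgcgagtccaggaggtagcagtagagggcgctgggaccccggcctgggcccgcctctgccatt
Ror2, chr13:53286125-53286374, minus strand: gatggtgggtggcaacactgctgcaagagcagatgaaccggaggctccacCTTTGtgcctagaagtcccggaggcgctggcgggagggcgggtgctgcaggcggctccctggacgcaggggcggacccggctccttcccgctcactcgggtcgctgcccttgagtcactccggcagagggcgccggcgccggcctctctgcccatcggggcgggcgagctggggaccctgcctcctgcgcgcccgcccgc
Sfrp2, chr3:83766071-83766320, plus strand: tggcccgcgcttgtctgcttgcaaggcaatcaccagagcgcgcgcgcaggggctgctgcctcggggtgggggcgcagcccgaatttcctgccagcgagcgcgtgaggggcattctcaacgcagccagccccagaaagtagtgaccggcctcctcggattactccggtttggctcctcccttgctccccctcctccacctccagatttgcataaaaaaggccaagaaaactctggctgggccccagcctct
Wnt6, chr1:74771642-74771891, plus strand: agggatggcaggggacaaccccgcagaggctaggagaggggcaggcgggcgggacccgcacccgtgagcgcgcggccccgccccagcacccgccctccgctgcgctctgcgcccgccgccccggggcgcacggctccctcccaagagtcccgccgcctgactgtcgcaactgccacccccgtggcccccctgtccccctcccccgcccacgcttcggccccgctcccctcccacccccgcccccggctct

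The RefSeq table held 46 start sites for 37 of the 55 genes. The windows were rich in G and C, with a median of 67.4% against 52.4% over all 32851 windows of the same length, and held a median of 22 CG pairs against 6. The full TCF/LEF core was searched as CTTTG followed by AA, AT, TA or TT, on both strands, and every such match also holds CTTTG. It was found in 6 of the 46 windows (13%), against 14.8% of all windows, and in none of the 5 printed above. CTTTG alone was present in 47.8% of the windows, against 48.6% of all. The window of Dkk1, an antagonist gene known as a Wnt target, held 2 full matches, 117 and 98 bases before its RefSeq start. In the GENCODE annotation Dkk1 reaches further upstream (chr19:30545863-30549665), so both matches lie inside that gene model, not before it. The stretch that the matches span is shown because the gene was nonetheless near the floor in these libraries.
Dkk1, chr19:30549588-30549613, minus strand: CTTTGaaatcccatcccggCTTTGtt
Dkk1 was listed at 0 in MEF, cNSC and DTA and did not exceed 0.179 FPKM elsewhere. A match is a description of letters in these windows only.

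**Figure D1:**
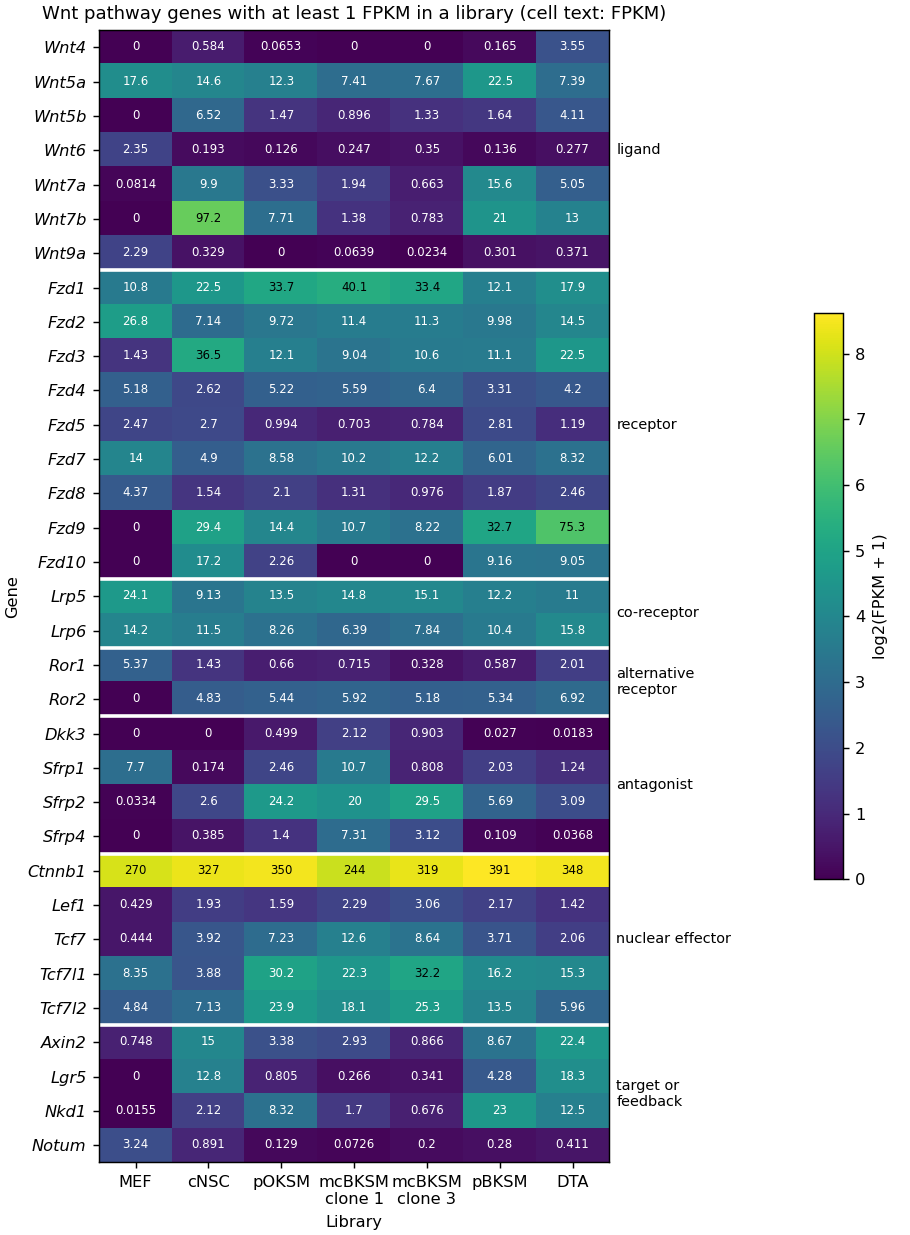
FPKM of the 33 Wnt pathway genes that reached 1 FPKM in at least 1 of the 7 libraries (columns), grouped by role (rows); colour is log2(FPKM + 1) and the number in each cell is FPKM. Ctnnb1 is at 244 to 391 FPKM in every library, while Axin2, Lgr5, Wnt7b and Fzd9 differ widely between the iNSC libraries.

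Few Wnt ligand genes were expressed. Of 19 ligand genes, 7 reached 1 FPKM in some library. The other 12 were Wnt1, Wnt2, Wnt2b, Wnt3, Wnt3a, Wnt8a, Wnt8b, Wnt9b, Wnt10a, Wnt10b, Wnt11 and Wnt16. The highest among those 12 was Wnt3, at 0.637 FPKM in mcBKSM clone 1, and Wnt3a, Wnt8a, Wnt9b and Wnt16 were listed at 0 in all 7 libraries. Summed over the 19 genes, ligand transcript was 130.3 FPKM in cNSC, 61.5 in pBKSM, 34.1 in DTA, 25.6 in pOKSM, 23.5 in MEF, 12.6 in mcBKSM clone 1 and 11.3 in clone 3.

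Wnt5a, a ligand best known for signalling that bypasses β-catenin, was the one ligand gene above 7 FPKM in all 7 libraries. It was 17.6 FPKM in MEF, 14.6 in cNSC, 12.3 in pOKSM, 22.5 in pBKSM, 7.41 in mcBKSM clone 1, 7.67 in clone 3 and 7.39 in DTA. It made up 75.0% of ligand FPKM in MEF and 11.2% in cNSC, and it was the leading ligand gene in pOKSM, pBKSM and both clones.

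The cortical library was set apart by Wnt7b (chr15:85535437-85582473, minus strand), a canonical ligand of the developing forebrain. Wnt7b was listed at 0 in MEF. It was 97.2 FPKM in cNSC, and in the iNSC libraries it was 21.0 FPKM in pBKSM, 13.0 in DTA, 7.71 in pOKSM, and 1.38 and 0.783 in mcBKSM clones 1 and 3. Every iNSC library thus lay between MEF and cNSC, and cNSC exceeded the nearest of them, pBKSM, 4.63-fold. Its relative Wnt7a was 0.0814 FPKM in MEF, 9.90 in cNSC, 3.33 in pOKSM, 15.6 in pBKSM, 1.94 in clone 1, 0.663 in clone 3 and 5.05 in DTA. For Wnt7a, pBKSM was above cNSC, and the mcBKSM clones were again the lowest of the iNSC libraries. Wnt7b overlaps the opposite-strand gene AU022754 in the annotation, and without strand information reads of the pair cannot be told apart.

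Wnt5b was 6.52 FPKM in cNSC, 4.11 in DTA, and 0.896 to 1.64 in the other 4 iNSC libraries, with 0 listed in MEF. Wnt4 was 3.55 FPKM in DTA, 0.584 in cNSC and at most 0.165 in every other library. Among the ligand genes that reached 1 FPKM, Wnt6 and Wnt9a were the ones highest in MEF, although Wnt5a led there. Wnt6 was 2.35 FPKM in MEF and 0.126 to 0.350 in the other 6. Wnt9a was 2.29 FPKM in MEF and 0 to 0.371 in the other 6.

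**Figure D2:**
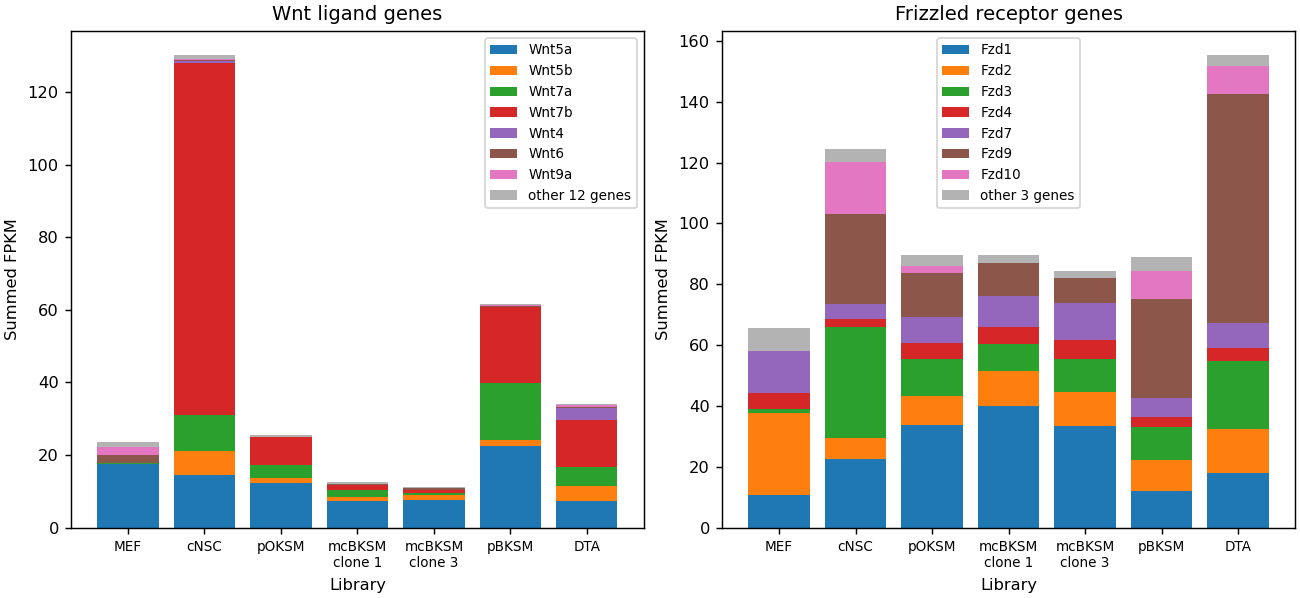
Summed FPKM (vertical axis) of the 19 Wnt ligand genes (left) and the 10 Frizzled genes (right) in each library, coloured by gene. Wnt7b makes up most of the 130.3 FPKM of ligand transcript in cNSC, and Fzd9 is the largest share in DTA and pBKSM.

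Frizzled receptor genes were expressed in every library, but by different members. Of 10 Frizzled genes, 9 reached 1 FPKM in some library, and Fzd6 did not (highest 0.735 FPKM, in MEF). The leading Frizzled gene was Fzd2 in MEF, Fzd3 in cNSC, Fzd1 in pOKSM and both mcBKSM clones, and Fzd9 in pBKSM and DTA. Summed over the family, values ranged from 65.7 FPKM in MEF to 155.5 in DTA, with 124.6 in cNSC and 84.5 to 89.8 in the other iNSC libraries.

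Fzd9, a receptor gene known from neural precursors, was listed at 0 in MEF and was 29.4 FPKM in cNSC, 14.4 in pOKSM, 32.7 in pBKSM, 10.7 in clone 1 of mcBKSM, 8.22 in its clone 3 and 75.3 in DTA. Fzd10 (chr5:128600844-128604093, plus strand) was at 0 in MEF and in both clones, with 17.2 FPKM in cNSC, 2.26 in pOKSM, 9.16 in pBKSM and 9.05 in DTA. Fzd3, a receptor known from axon guidance and planar polarity, was 36.5 FPKM in cNSC, 22.5 in DTA, 9.04 to 12.1 in the other iNSC libraries and 1.43 in MEF. These 3 genes were lowest in MEF, and for each of them DTA or pBKSM was nearer to cNSC than either clone was. Fzd1 had another order, with 40.1 FPKM in clone 1, 33.7 in pOKSM and 33.3 in clone 3. It was 22.5 FPKM in cNSC, 10.8 in MEF, 18.0 in DTA and 12.1 in pBKSM. Fzd2, Fzd7 and Fzd8 were highest in MEF (26.7, 14.0 and 4.37 FPKM), and cNSC had 7.14, 4.90 and 1.54. Fzd4 ranged over the libraries from 2.62 to 6.40 FPKM and Fzd5 from 0.703 to 2.80 FPKM.

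Both co-receptor genes were above 6 FPKM in every library. Lrp5 was 24.1 FPKM in MEF, 9.13 in cNSC and 10.96 to 15.1 in the iNSC libraries, and Lrp6 ranged from 6.39 to 15.8 FPKM over all 7. The alternative Wnt receptors Ror1 and Ror2, receptor tyrosine kinases that bind Wnt5a, changed places. Ror1 was 5.37 FPKM in MEF, 1.43 in cNSC, 2.01 in DTA and 0.328 to 0.715 in the other iNSC libraries. Ror2 was listed at 0 in MEF and was 4.83 FPKM in cNSC, 5.44 in pOKSM, 5.34 in pBKSM, 5.92 in clone 1, 5.18 in clone 3 and 6.92 in DTA. Ror2 was 5.76 ± 0.706 FPKM over the iNSC libraries (SD, n = 5), and all 5 were above cNSC.

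Among the antagonist genes, 4 of 9 reached 1 FPKM in some library. Dkk1, Dkk2, Dkk4, Sfrp5 and Wif1 did not, with Wif1 reaching 0.874 FPKM in DTA, and Dkk4 and Sfrp5 were listed at 0 throughout. Sfrp2 was 29.5 FPKM in mcBKSM clone 3, 24.2 in pOKSM, 20.04 in clone 1, 5.69 in pBKSM, 3.09 in DTA, 0.0334 in MEF and 2.60 in cNSC. The pOKSM library and the clones were therefore the high ones, and DTA was close to cNSC. Sfrp4 was 7.31 FPKM in clone 1, 3.12 in clone 3, 1.40 in pOKSM and at most 0.385 elsewhere. Dkk3 was 2.12 and 0.903 FPKM in the clones, 0.499 in pOKSM and at most 0.0270 elsewhere. Sfrp1 was 10.7 FPKM in clone 1 and 0.808 in clone 3, 13.2-fold apart between clones of 1 label, with 7.70 in MEF, 2.46 in pOKSM, 2.03 in pBKSM, 1.24 in DTA and 0.174 in cNSC. The agonist genes Rspo1, Rspo2, Rspo3 and Rspo4 stayed under 1 FPKM in all 7 libraries, with the highest value, 0.682 FPKM, for Rspo3 in DTA.

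Ctnnb1 was the most abundant of the 55 genes. It was 270 FPKM in MEF, 327 in cNSC, 350 in pOKSM, 391 in pBKSM, 244 in clone 1, 319 in clone 3 and 348 in DTA. The genes of its DNA-binding partners differed more. Tcf7l1, whose product acts mainly as a repressor, was 32.2 FPKM in clone 3, 30.2 in pOKSM, 22.3 in clone 1, 16.2 in pBKSM, 15.3 in DTA, 8.35 in MEF and 3.88 in cNSC. All 5 iNSC libraries were thus above both reference libraries. Tcf7l2 was 25.3 FPKM in clone 3, 23.9 in pOKSM, 18.1 in clone 1, 13.5 in pBKSM, 7.13 in cNSC, 5.96 in DTA and 4.84 in MEF. Tcf7 was 12.6 and 8.64 FPKM in the clones, 7.23 in pOKSM, 3.93 in cNSC, 3.71 in pBKSM, 2.06 in DTA and 0.444 in MEF. Lef1 was lower throughout, from 0.430 FPKM in MEF to 3.06 in clone 3. For Tcf7, Tcf7l1 and Tcf7l2, pOKSM and both clones were the 3 highest libraries. Tcf7l1 overlaps the opposite-strand gene Gm15401 in the annotation, so its value carries the same reserve as Wnt7b. Axin2, Notum, Sfrp2, Lef1 and Fzd5 overlap opposite-strand genes that are not in the table, and their values carry this reserve as well.

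The target genes Axin2, Lgr5 and Nkd1 were highest in DTA or pBKSM, and Notum was highest in MEF. Axin2 (chr11:108920349-108950783, plus strand), a scaffold of the β-catenin destruction complex and a widely used readout of canonical signalling, was 22.4 FPKM in DTA, 15.0 in cNSC, 8.67 in pBKSM, 3.38 in pOKSM, 2.93 in mcBKSM clone 1, 0.866 in clone 3 and 0.748 in MEF. Lgr5 (chr10:115450311-115587780, minus strand), the R-spondin receptor and stem cell marker of several epithelia, was 18.3 FPKM in DTA, 12.8 in cNSC, 4.28 in pBKSM, 0.805 in pOKSM, 0.341 in clone 3 and 0.266 in clone 1, with 0 listed in MEF. Both genes had DTA, cNSC, pBKSM and pOKSM as their first 4 libraries, in that order. A count of 3 fragments would give Lgr5 between 0.0400 and 0.0595 FPKM, so its values in the clones were above this floor. Nkd1, an inhibitor acting on Dishevelled, was 23.0 FPKM in pBKSM, 12.5 in DTA, 8.32 in pOKSM, 2.12 in cNSC, 1.70 in clone 1, 0.677 in clone 3 and 0.0155 in MEF. Nkd1 thus departed from the order of Axin2 and Lgr5, with 3 iNSC libraries above cNSC. Notum, a secreted enzyme that inactivates Wnt proteins, was 3.24 FPKM in MEF, 0.891 in cNSC and 0.0726 to 0.411 in the iNSC libraries.

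**Figure D3:**
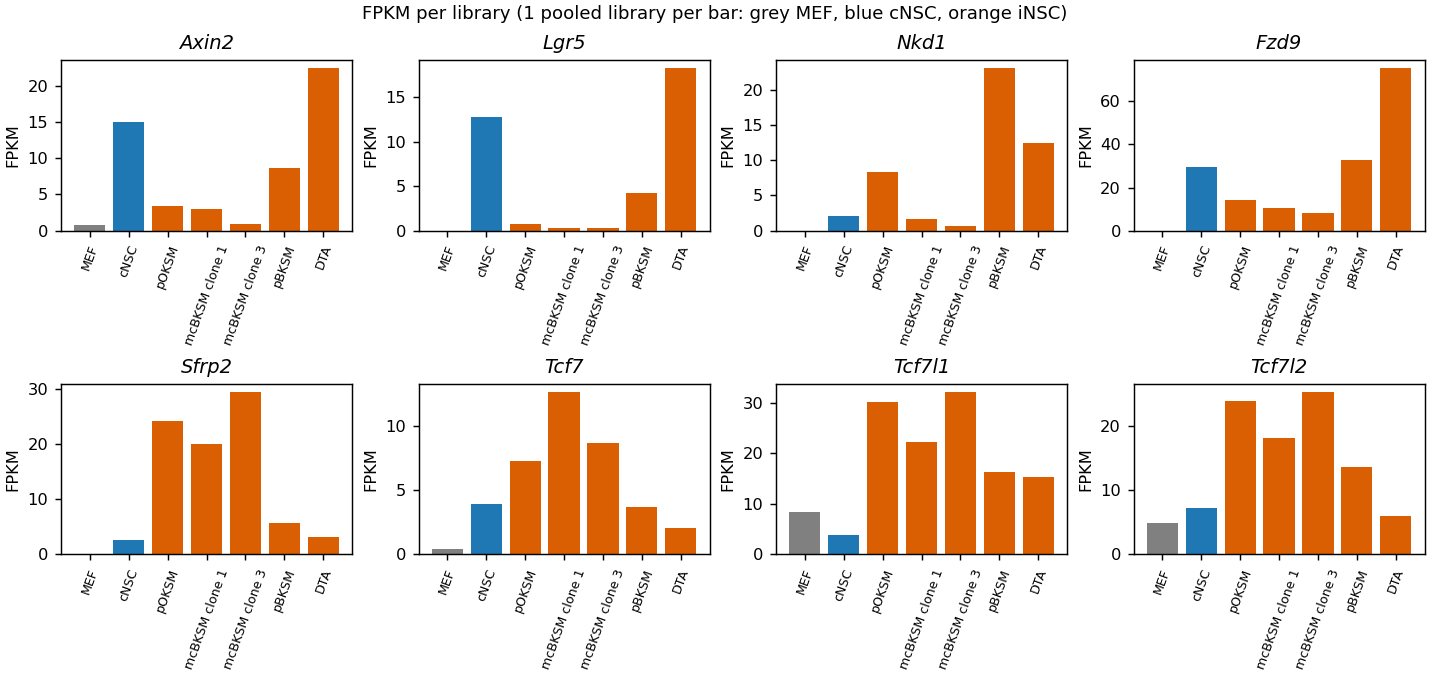
FPKM of 4 genes high in DTA or pBKSM (Axin2, Lgr5, Nkd1, Fzd9; upper row) and 4 genes high in pOKSM and the mcBKSM clones (Sfrp2, Tcf7, Tcf7l1, Tcf7l2; lower row), 1 bar per library. Axin2 reaches 22.4 FPKM in DTA and 0.866 in mcBKSM clone 3, while Sfrp2 is 3.09 and 29.5 FPKM in the same libraries.

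Marker genes of other cell types also differed between the libraries. The 6 astrocyte markers (Gfap, Aqp4, Aldh1l1, S100b, Slc1a3, Slc1a2) summed to 734 FPKM in cNSC, 501 in DTA, 237 in pBKSM, 70.8 in pOKSM, 33.6 in clone 1, 30.3 in clone 3 and 9.96 in MEF, with Gfap and S100b listed at 0 in clone 3. The astrocyte markers did not share the order of their sum. Gfap was 374 FPKM in cNSC and 24.5 in DTA, and Aldh1l1 was also lower in DTA. Aqp4, S100b, Slc1a3 and Slc1a2 were higher in DTA than in cNSC, and S100b was highest in pBKSM (61.5 FPKM). The 7 neuronal markers did not share 1 order either. Among them, with sums of 129 to 274 FPKM outside MEF and 13.9 in MEF, Rbfox3 was 29.7 and 26.0 FPKM in the clones and 19.9 in pOKSM, whereas cNSC had 0.0693, DTA 0.497 and pBKSM 1.62. Dcx was likewise highest in clone 3, pOKSM and clone 1 (3.26, 2.42 and 2.40 FPKM). Map2 and Syp were instead highest in pBKSM (259 and 6.11 FPKM) and Neurod1 in DTA (1.93). Mural or meningeal markers (6 genes) summed to 112 FPKM in MEF, 65.8 in cNSC and 1.75 to 5.77 in the iNSC libraries, led in cNSC by Acta2 at 47.5 FPKM. The part of these cell types in the Wnt pathway values was not tested.

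The cortical and fibroblast libraries were compared first, 1 library against 1 and so with no test. Of the 33 genes, 9 were at least 4-fold higher in cNSC on the log2(FPKM + 1) scale and 1 was at least 4-fold lower, beside 6.77% and 5.43% of all genes tested (12.2% in either direction). The 9 were Wnt7b (log2 difference 6.62), Fzd9 (4.93), Fzd10 (4.18), Fzd3 (3.95), Lgr5 (3.79), Wnt7a (3.33), Axin2 (3.20), Wnt5b (2.91) and Ror2 (2.54). They span ligands, receptors and targets, and the 1 lower gene was the antagonist Sfrp1 (-2.89). At 2-fold the counts were 13 higher and 9 lower, beside 29.8% of all genes in either direction. With a pseudocount of 0.1 they were 14 and 3 at 4-fold, beside 20.4% of all genes.

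To see which of these genes were shared by the converted lines, the 5 iNSC libraries were tested against MEF with limma, in 1 fit that takes its spread from the iNSC libraries and assumes that the lone MEF library varies like them. Ror2 and Fzd3 rose, and Notum, Wnt6, Wnt9a, Fzd2 and Ror1 fell. That is 2 of 33 higher, beside 6.77% of all genes, and 5 of 33 lower, beside 9.55% (16.3% in either direction). The split depended on the pseudocount: with 0.1 in place of 1, 6 were called higher and 3 lower (17.1% of all genes in either direction). That setting added Fzd9, Lef1, Sfrp2 and Wnt5b and lost Ror1 and Wnt9a. Ror2 rose by a log2 difference of 2.75 ± 0.23 (SE, adjusted p = 0.00127), from 0 listed in MEF, in 5 of 5 iNSC libraries; against a library at 0 this size depends on the pseudocount. Fzd3 rose by 2.46 ± 0.47 (adjusted p = 0.0218), at 13.1 ± 5.37 FPKM in the lines (SD, n = 5). Notum fell by 1.81 ± 0.18, Wnt6 by 1.45 ± 0.15 and Wnt9a by 1.53 ± 0.22, each lower and under 1 FPKM in 5 of 5 iNSC libraries. These genes reached 1 FPKM in MEF alone, so they entered the test through the library in which they were high. Their calls are descriptions only. Fzd2 fell by 1.18 ± 0.25 (adjusted p = 0.0312), to 11.4 ± 1.89 FPKM, and Ror1 fell by 1.84 ± 0.44 (0.0433). The calls of Wnt9a and Ror1 were lost with a pseudocount of 0.1 (adjusted p = 0.0642 and 0.0839), and that of Ror1 also with 0.5 (0.0577) or without a filter (0.0531).

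Several genes with differences as large or larger did not pass, and the lines were far apart in them. Fzd9 differed by 4.41 ± 1.17 (adjusted p = 0.0585), Sfrp2 by 3.70 ± 1.20 (0.0971), Nkd1 by 2.73 ± 1.502 (0.272), Wnt7b by 2.69 ± 1.48 (0.271) and Axin2 by 1.76 ± 1.30 (0.401). Axin2 was 7.65 ± 8.73 FPKM in the lines (SD, n = 5), an SD above its mean, and all 5 libraries were above the MEF value. The median difference was 1.09 over the 33 genes and 0.03 over all genes tested.

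The count of 7 depended on which library was left out: it was 4 without pOKSM, 4 without mcBKSM clone 3 and 14 without DTA, and 3 without both clones, a setting chosen after seeing the data. The share of all genes called moved the same way, to 8.81%, 10.9%, 24.7% and 6.52%. Without pOKSM the adjusted p was 0.0645 for Fzd3, 0.0826 for Fzd2 and 0.108 for Ror1, and without clone 3 it was 0.0501, 0.0771 and 0.0786. Fzd2 also missed the threshold without clone 1 (0.074), and Ror1 without clone 1 (0.093) or pBKSM (0.0761). Without DTA, Fzd9 (0.0308), Lef1 (0.0463), Sfrp2 (0.0423), Tcf7l2 (0.037), Wnt5b (0.0259), Tcf7 and Lrp5 passed as well. Ror2 was called with each single library left out. So were Notum, Wnt6 and Wnt9a, and Wnt9a was lost without both clones (0.0709). MEF stayed in each of these fits, so they cannot check calls of genes that entered through MEF.

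**Figure D4:**
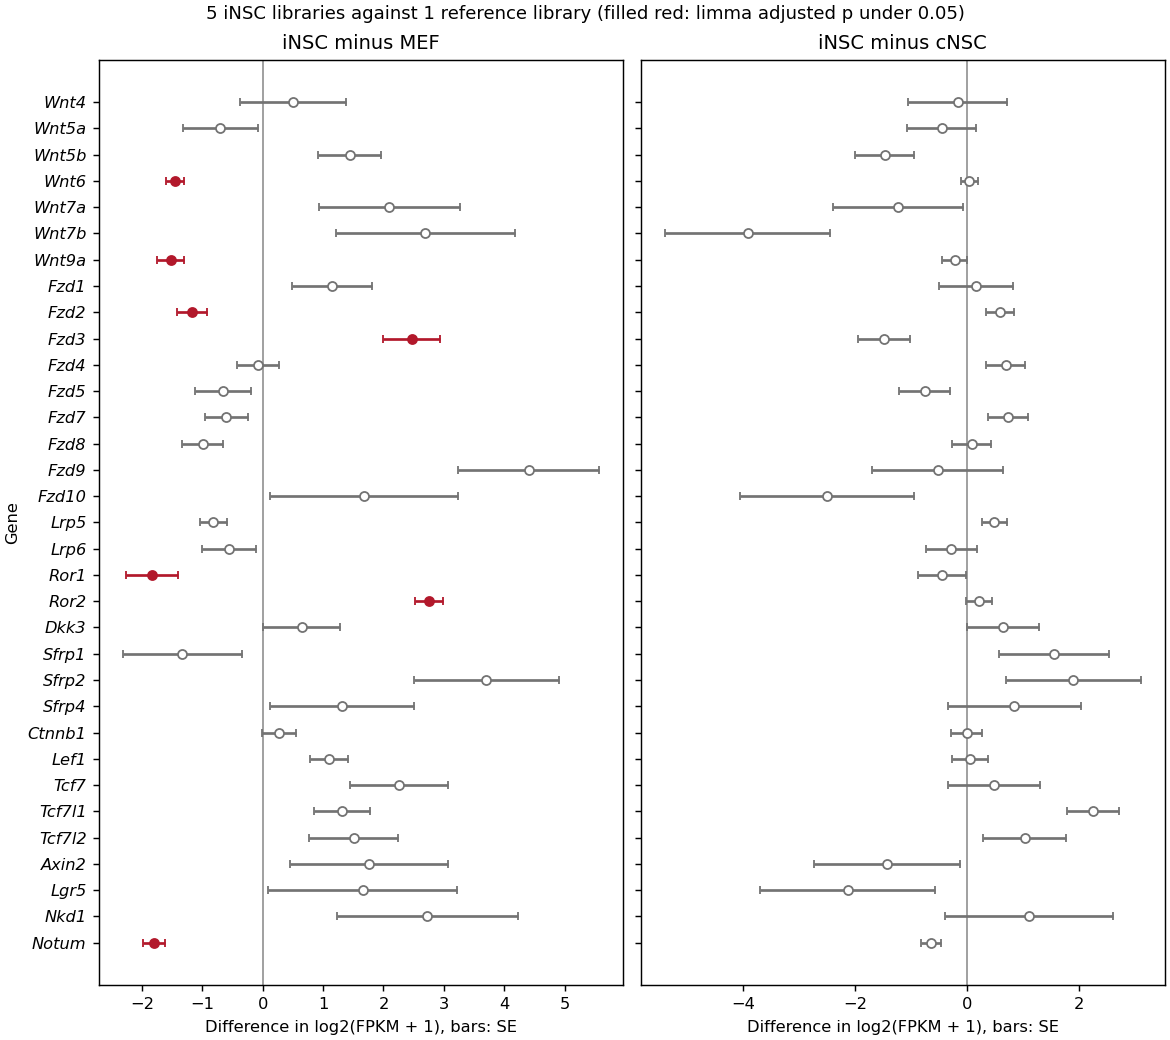
Difference in log2(FPKM + 1) between the 5 iNSC libraries and MEF (left) or cNSC (right) for each of the 33 genes, with the SE from limma as bars; filled red points have an adjusted p under 0.05. Ror2 (2.75) and Fzd3 (2.46) are the called rises against MEF, and no point is called against cNSC.

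Against cNSC, limma called 0 of the 33 genes, beside 0.207% of all genes tested called higher, 0.958% lower and 1.17% in either direction. Of the 33, 5 had an unadjusted p under 0.05, beside 1779 of all 13042 genes tested, and limma without a mean-variance trend also called 0. The smallest adjusted p was that of Tcf7l1, higher in 5 of 5 iNSC libraries (log2 difference 2.25 ± 0.46, adjusted p = 0.119). The other 4 were lower in the iNSC lines: Wnt7b (-3.92 ± 1.48, adjusted p = 0.345), Fzd3 (-1.48 ± 0.47, 0.279), Wnt5b (-1.47 ± 0.53, 0.333) and Notum (-0.64 ± 0.18, 0.239). Each of these 4 was lower than in cNSC in 5 of 5 iNSC libraries. Without DTA, Fzd3 (adjusted p = 0.0289) and Wnt5b (0.0314) were called lower, beside 6.82% of all genes called in either direction. Strain and conversion cannot be told apart in this comparison.

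Single lines lay at different distances from cNSC. At a 2-fold difference or more on the log2(FPKM + 1) scale, DTA differed from cNSC at 5 of the 33 genes (11% of all genes), pBKSM at 7 (16.8%), pOKSM at 12 (19%), mcBKSM clone 3 at 15 (24.4%) and clone 1 at 16 (23.2%). These 5 comparisons share the cNSC library and have no test. DTA was 2-fold or more above cNSC at Nkd1, Tcf7l1, Wnt4 and Fzd9 (log2 differences 2.11, 1.74, 1.52 and 1.33) and below it at Wnt7b (-2.81). In pBKSM, Nkd1, Tcf7l1 and Sfrp1 were above cNSC (2.95, 1.82 and 1.37) and Wnt7b, Fzd3, Wnt5b and Lgr5 below it (-2.16, -1.63, -1.51 and -1.39).

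DTA and pBKSM, the lines with the fewest differences from cNSC, were 2-fold or more apart at 7 of the 33 genes (10.9% of all genes). Wnt4, Lgr5, Axin2 and Fzd9 were higher in DTA (1.96, 1.87, 1.28 and 1.18), and Wnt5a, Wnt7a and Tcf7l2 were lower (-1.49, -1.46 and -1.06). The pOKSM library differed from clone 1 at 6 genes (3.44%) and from clone 3 at 5 (2.87%).

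Read as above, pBKSM and the mcBKSM clones were made with the same factors on different vectors. The gap between the clones came first: they were 2-fold or more apart at 3 of 33 genes (1.51% of all genes), namely Sfrp1, Axin2 and Sfrp4 (log2 differences 2.69, 1.08 and 1.01, all higher in clone 1). At 9 genes pBKSM was at least 2-fold above both clones (8.41% of all genes): the ligands Wnt5a, Wnt7a and Wnt7b, the receptors Fzd5, Fzd9 and Fzd10, and the targets Axin2, Lgr5 and Nkd1. At 4 genes it was at least 2-fold below both (6.69% of all genes): Fzd1, the antagonists Sfrp2 and Sfrp4, and Tcf7. Wnt7b was 15.2-fold and 26.8-fold higher in pBKSM than in clones 1 and 3, Nkd1 13.6-fold and 34.0-fold, and Lgr5 16.1-fold and 12.5-fold.

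**Figure D5:**
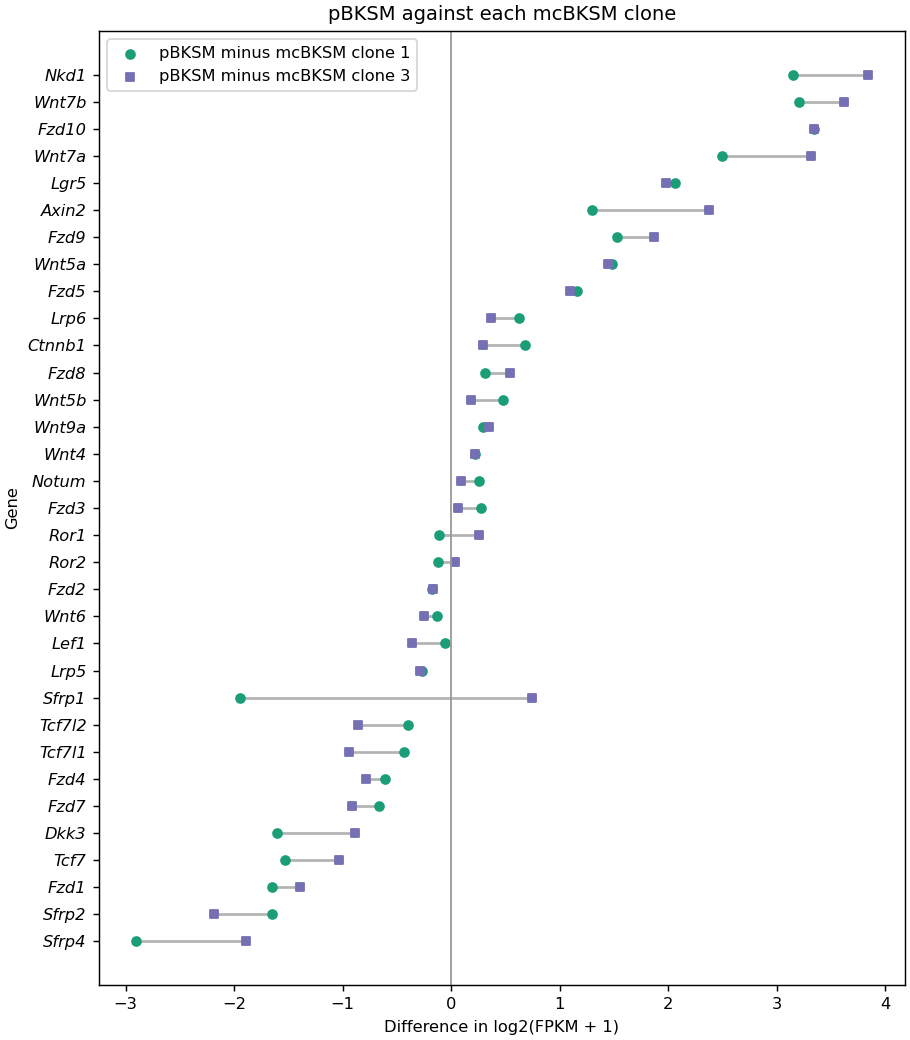
Difference in log2(FPKM + 1) between pBKSM and each mcBKSM clone (circles clone 1, squares clone 3; a line joins both values of a gene) for the 33 genes. Nkd1, Wnt7b and Fzd10 stand highest, Sfrp4 and Sfrp2 lowest, and Sfrp1 lies on both sides of 0.

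In limma, with all 6 label groups in 1 fit and 1 residual degree of freedom from the 2 clones, 2 of the 33 genes were called higher in pBKSM (3.74% of all genes) and 0 lower (2.08%; 5.82% in either direction). They were Fzd10 (log2 difference 3.34 ± 0.10, SE, adjusted p = 0.0367), listed at 0 in both clones so that its size depends on the pseudocount, and Lgr5 (2.02 ± 0.10, adjusted p = 0.0423). With both clones at 0, the SE and p of Fzd10 rest on spread that limma borrows from other genes and measure no spread of Fzd10. Wnt7b (3.41 ± 0.27, adjusted p = 0.0531), Wnt5a (1.46 ± 0.12, 0.0535), Fzd5 (1.13 ± 0.08, 0.0505), Nkd1 (3.498 ± 0.41, 0.0681) and Fzd1 (-1.52 ± 0.17, 0.0672) missed the threshold narrowly. Axin2, with its gap between clones, did not pass (1.83 ± 0.63, adjusted p = 0.182). Over the 33 genes, 16 had an unadjusted p under 0.05, beside 4880 of all 13042 genes tested. The count was 10 in a fit of the 3 BKSM libraries alone, where 21.1% of all genes were called, and 0 without a mean-variance trend, where 0 of all 13042 genes were called and Fzd10 and Lgr5 both had an adjusted p of 0.0595. Lgr5 also missed the threshold without a filter (0.0657) and with a pseudocount of 0.1 (0.0522).

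The pBKSM and pOKSM libraries were compared as well. The pBKSM library was at least 2-fold above pOKSM at 7 of the 33 genes and below it at 3 (11.5% of all genes, 1 library against 1). The 7 were Wnt7a, Fzd10, Lgr5, Nkd1, Wnt7b, Axin2 and Fzd9 (log2 differences 1.94, 1.64, 1.55, 1.37, 1.33, 1.14 and 1.13). Sfrp2, Fzd1 and Sfrp4 were the 3 lower ones (-1.92, -1.41 and -1.12). This comparison and that with the clones share the pBKSM library.

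Other genes of the pathway were read from a list of 58 that are no members of these families, of which 52 were tested. Against MEF, 5 of 52 rose in iNSCs and 1 fell, beside 6.77% and 9.55% of all genes. The planar polarity genes Celsr2 (0.00597 FPKM in MEF, 9.85 in the lines; log2 difference 3.41 ± 0.29, adjusted p = 0.00122), Celsr1 (2.197 ± 0.32, 0.00918) and Vangl2 (1.87 ± 0.24, 0.00565) rose, as did the corepressor gene Tle2 (5.28 and 38.4 FPKM; 2.63 ± 0.29, 0.00334) and Apc of the destruction complex (0.87 ± 0.15, 0.0155). Tpbg, encoding an inhibitor at the cell surface, fell by 2.05 ± 0.45 (adjusted p = 0.034). Leaving out single libraries changed 2 of these 6 calls: Apc missed the threshold without pOKSM (0.0614) or clone 3 (0.0511), and Tpbg without pOKSM (0.0903), pBKSM (0.0621) or clone 3 (0.0779). Without both clones Apc, Tpbg and Celsr1 (0.123, 0.102 and 0.051) all missed it. Without DTA, 14 of the list were called, beside 24.7% of all genes.

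Against cNSC, 2 of the 52 were called, beside 1.17% of all genes. Rnf43, a ubiquitin ligase that removes Frizzled receptors from the surface, fell: it was 6.88 FPKM in cNSC and 0 to 0.197 in the iNSC libraries (log2 difference -2.91 ± 0.15). Rnf43 reached 1 FPKM in cNSC alone and so entered the test through the library in which it was high. Its call is a description only. It missed the threshold without both clones (0.113), where 0 of all 12889 genes were called. Tle2 rose from 5.004 FPKM in cNSC to 27.9 to 44.2 in the lines (2.69 ± 0.29, adjusted p = 0.018), and missed the threshold without pOKSM (0.0947), clone 1 (0.074) or clone 3 (0.0749). Without DTA the count was 4, beside 6.82% of all genes. In pBKSM against the clones, Draxin, an antagonist and axon guidance gene (10.99 FPKM against 0.147 in each clone; 3.39 ± 0.08, adjusted p = 0.0367), and Tnfrsf19, a Wnt-responsive receptor gene (23.6 against 3.80 and 3.87; 2.35 ± 0.13, 0.0451), were higher and 0 of 52 were lower. Both calls were lost without a trend (adjusted p = 0.0595), and that of Tnfrsf19 also with a pseudocount of 0.1 (0.0539) or without a filter (0.0558). Because Draxin was almost equal in the clones, its SE and p rest almost wholly on spread borrowed from other genes. Draxin was also high in DTA, at 11.9 FPKM, with 1.77 in cNSC. The canonical target Ccnd1 (cyclin D1), named like Apc after the values were seen, was 592 FPKM in cNSC, 421 in pBKSM, 413 in DTA, 239 in pOKSM, 216 in MEF, 118 in mcBKSM clone 1 and 95.9 in clone 3, and did not pass against the clones (adjusted p = 0.0595).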

How the data were processed

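The authors deposited 1 table of FPKM values for 7 libraries, and all columns matched a sample title. The submitters' processing notes name build mm10 and 4 tools (R 3.3.2, Cuffnorm, Cufflinks 2.2.1, STAR 2.5.2b). What each did, the annotation and the strand setting were not given in these sources. Per the labels' protocols, RNA of several biological replicates was pooled for each library, so p-values measure spread between lines or clones only. Limma moderates that spread with spread borrowed from other genes.

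FPKM was used as log2(FPKM + 1), which understates changes of low genes. Genes that reached 1 FPKM in any library were fitted with limma-trend (limma 3.58.1, R 4.3.3), with Benjamini-Hochberg adjustment over all 13042 genes and a threshold of 0.05. The class fit (iNSC, MEF, cNSC) had 4 residual degrees of freedom and the label fit 1. The fits were run on simulated data in which every library was given the spread of the iNSC lines or of the clones. That run cannot check whether a lone library varies like them.

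Depth came from low values of single-transcript genes: at the chosen depth 71.4% to 75.8% lay within 0.1 of a whole number of fragments (20% by chance), so depths are approximate. Floors of 3 fragments cover counting error only. Gene positions are from GENCODE M21 (GRCm38, the same assembly as mm10), and promoters are from RefSeq (GRCm38.p6).

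All genes with at least 1 FPKM are named; of the other pathway genes, up to 4 called each way with the largest differences were to be named, and all called ones are, Apc and Ccnd1 after their values were seen. The members and lists were chosen with earlier results of these data known. Alternatives were other pseudocounts (0.1, 0.5), filters (none, 5 FPKM), quantile normalization, no trend, averaged clones and left-out libraries.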

Additional observations from a re-analysis of the deposited data

Results flagged for a closer look

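Of the 33 genes examined, 1 had an iNSC library far from the other 4 by Dixon's criterion on log2(FPKM + 1). Chance flags about 1 in 20 groups, so 1 flag in 33 genes is no more than chance gives. The gene, Wnt4, reached 1 FPKM in DTA alone. It was thus examined because of the value that was flagged, and the flag is a description only. Wnt4 was 3.55 FPKM in DTA and at most 0.165 FPKM in the other iNSC libraries, and the gap to the nearest of them took up 0.899 of the whole range. The cortical library had 0.584 FPKM of Wnt4. The cause was not tested.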

How the results depend on the processing

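No difference of a gene called, or 2-fold or more apart, in these fits changed sign under the alternatives run. Against MEF, 7 genes were called (16.3% of all genes). The count was 4 with a 5 FPKM filter (16.4%), which left 25 of the 33 to test and removed Notum, Wnt6 and Wnt9a. It was 3 without both mcBKSM clones (6.52%, chosen after seeing the data), and 4 to 14 with single libraries left out (8.81% to 24.7%). Against cNSC, 0 were called (1.17% of all genes). Without a filter 2 were called (3.48%), Wnt2 and Wnt8b, both under 1 FPKM everywhere. With single libraries left out the count was 0 to 2 (0.384% to 6.82%). For pBKSM against the clones, 2 were called; the count was 4 without a filter (4.4% of all genes), 7 with a 5 FPKM filter (13.5%), 0 without a trend (0 of all genes) and 10 from the 3 BKSM libraries alone (21.1%). With 1 clone left out no test is possible there, as no residual degree of freedom remains, and only values were compared. Of the other pathway genes, 4 to 14 were called against MEF and 1 to 4 against cNSC with single libraries left out (chosen after seeing the data). The shares of all genes were the same 8.81% to 24.7% and 0.384% to 6.82%. Without a filter, 4 were called against cNSC (3.48% of all genes) and 1 for pBKSM against the clones (4.4%). Between cNSC and MEF, 10 genes were 4-fold apart (12.2% of all genes), 22 were 2-fold apart (29.8%) and 17 were 4-fold apart with a pseudocount of 0.1 (20.4%). The causes were not tested. No paired analysis was possible because the groups compared share fewer than 2 replicate numbers by label. Depth limits the 22 genes under 1 FPKM: on a transcript of 2 kb, 3 fragments give 0.0943 to 0.14 FPKM.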
